A study of Homo sapiens with 12 samples.

Results

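The genes described here encode the proteins of the human mitochondrial ribosome. They were taken as the protein-coding rows of the deposited gene count table whose symbols begin with MRPL or MRPS and a digit. The rule found 78 of 58735 genes, 49 for the large subunit (MRPL) and 29 for the small subunit (MRPS), and all 78 had enough counts to be tested.

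The mitochondrial ribosome translates the few mRNAs that the mitochondrial genome encodes, all for subunits of the respiratory chain and ATP synthase. All of its proteins are encoded in the nucleus, made in the cytosol and imported, and they assemble on rRNAs transcribed inside the mitochondrion. The small subunit reads the mRNA and the large subunit forms the peptide bonds, and many of the proteins in each have no counterpart in the bacterial ribosome.

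The study compared how keratinocytes of the skin and of the oral mucosa meet oxidative stress. HaCaT is an immortalized line of skin keratinocytes and TIGK is an immortalized line of gingival keratinocytes, so each tissue is represented by 1 line. Both lines were kept in the same DermaLife K keratinocyte medium, grown to confluency, and either left untreated or exposed to 5 mM H2O2 for 3 h. There were 3 libraries of polyA RNA in each of the 4 groups, and no source says whether they came from separate cultures, so p-values measure only the spread between these libraries, which may be technical. In the treatment field of the labels the formula of the peroxide counts upward with the replicate number, while the protocol names H2O2 for all treated cells.

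The libraries held 30426401 to 49034244 counted reads. The 8 keratinocyte markers all had a mean of over 10 normalized counts in every group, with summed levels of 1088790 to 1348950, against 311 to 932 for 5 fibroblast markers and 0 to 5.92 for 3 leukocyte markers. Here a normalized count is a TMM-scaled count brought to the mean library size of 36310635.5 reads. Replicate 3 of the HaCaT H2O2 group stood furthest from its partners, with chi-square values per degree of freedom of 18.3 and 26.9 against at most 13.8 in all other replicate pairs, so results that rest on it are given without it too. Rows of 75 pseudogenes with names like the members' held counts equal to 0.103 to 0.203% of the members' counts.

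Summed over all 78 genes, mitoribosomal protein mRNA took a larger share of the library after H2O2 in both lines. In HaCaT the share was 0.366, 0.368 and 0.353% in untreated libraries and 0.438, 0.461 and 0.523% after H2O2. In TIGK it was 0.382, 0.378 and 0.343% before and 0.439, 0.440 and 0.444% after. The untreated and treated libraries did not overlap in either line, and the mean (± SD, n = 3) went in HaCaT from 0.362 ± 0.00835% to 0.474 ± 0.0439% and in TIGK from 0.368 ± 0.0216% to 0.441 ± 0.00263%. The highest of the 12 values came from replicate 3 of treated HaCaT, the library that stood apart. The share of reads on the mitochondrial chromosome went the other way. In HaCaT it went from 6.18 ± 0.0792% to 3.40 ± 0.103% and in TIGK from 3.39 ± 0.0607% to 1.43 ± 0.0614%, with no overlap. These are shares of RNA from whole cultures, so fewer cells and less RNA per cell cannot be told apart, nor can the total RNA per cell be read from them.

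**Figure D1:**
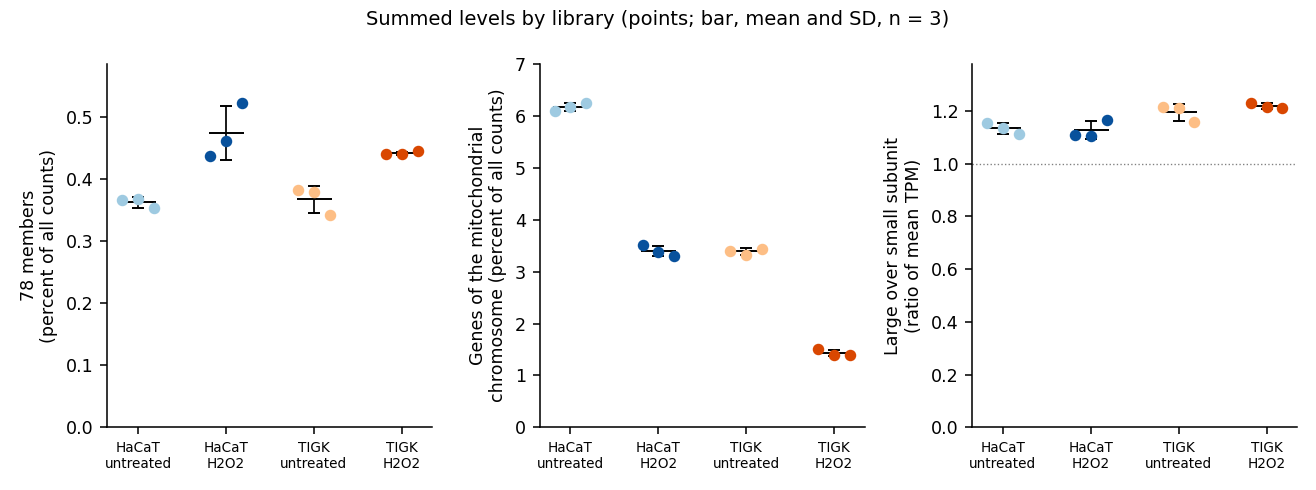
Summed levels in each of the 12 libraries by group, with points for libraries and bars for the mean and SD (n = 3). The members' share of counts lies higher after H2O2 in both lines while the share on the mitochondrial chromosome lies lower, and the mean ratio of large to small subunit lies between 1.13 and 1.22 in all groups.

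Within each subunit the highest and lowest mRNA levels lay far apart although the proteins assemble into one particle. On the TPM scale, which divides counts by the deposited gene length, the mean over all libraries ran from 1.45 (MRPL38) and 3.28 (MRPL46) to 292 (MRPL15) and 322 (MRPL3) in the large subunit, a 222-fold range around a median of 68.8. In the small subunit it ran from 1.85 (MRPS24) and 6.06 (MRPS18C) to 226 (MRPS26) and 334 (MRPS34), a 180-fold range around a median of 50.1. The bulk of the members lay closer together. The third quartile was 2.08 times the first in the large subunit and 4.50 times the first in the small subunit. MRPL3 is the homologue of a bacterial protein near the peptidyl transferase centre, and MRPS34 is a small subunit protein that bacteria lack. In the GENCODE v44 annotation 45.1% of the exon bases of MRPL38, 40.2% of those of MRPS18C, 23.2% of those of MRPS24 and 11.3% of those of MRPL46 also lie in another gene. MRPS34, at the high end, shares 31.2%. On the same strand the shared part was 41.1% for MRPL38, 23.2% for MRPS24, 11.3% for MRPL46 and 0% for MRPS18C and MRPS34. Across the members the level and the shared percent had a Spearman correlation of -0.326. The part of exon overlap in the counts was not tested.

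The mean level of a large subunit gene exceeded that of a small subunit gene by a similar factor in all groups. Mean TPM was 75.5 for large and 66.5 for small subunit genes in untreated HaCaT and 82.3 and 68.8 in untreated TIGK. After H2O2 the means were 99.99 and 88.5 in HaCaT and 99.97 and 82.0 in TIGK. The ratio of large to small was 1.135 ± 0.0211 before and 1.128 ± 0.0341 after H2O2 in HaCaT, and 1.195 ± 0.0314 before and 1.219 ± 0.0111 after in TIGK (SD, n = 3). In each line the ratio moved by less than the SD of its untreated libraries. Within each condition every TIGK library lay above every HaCaT library, at 1.159 to 1.216 against 1.114 to 1.156 in untreated cells and at 1.210 to 1.232 against 1.107 to 1.167 after H2O2. The order of the lines held for ratios of means only. With medians in place of means the ratio was higher in HaCaT than in TIGK in both conditions. MRPS30 and MRPS18A carry small subunit names but sit in the large subunit in structures, and MRPS36 belongs to the oxoglutarate dehydrogenase complex. Placing these genes by structure gave ratios of 1.059 and 1.049 in HaCaT and 1.130 and 1.155 in TIGK.

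In HaCaT most members of both subunits rose after H2O2. With edgeR's quasi-likelihood test and Benjamini-Hochberg adjustment over all 16618 genes tested, 57 of 78 members passed an adjusted p of 0.01 as higher, where 18.9% of all genes tested were higher. None passed as lower, where 15.2% of all genes were (34.1% passed in either direction), although 2 fell at an unadjusted p under 0.05 and 2 passed with DESeq2. The large subunit had 37 of 49 higher (75.5%) with a median log2 fold change of 0.41, or 1.33-fold, and the small subunit had 20 of 29 (69%) with a median of 0.36, or 1.28-fold. The median over all genes tested was 0.038. In 61 members every treated HaCaT library lay above every untreated one and in 2 every one lay below, against 29.7% and 24.1% of all genes. Without replicate 3 of treated HaCaT, 40 members were higher and the large subunit median was 0.28. The count of higher members ran from 39 to 58 on leaving out 1 library of any group, and was lowest without replicate 3 of untreated HaCaT.

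In TIGK the members leaned the same way. By the same test 19 of 78 members were higher, where 10.2% of all genes tested were, and 1 was lower, where 12.9% of all genes were (23.2% passed in either direction). The large subunit had 12 of 49 higher (24.5%) with a median log2 fold change of 0.26, or 1.196-fold. The small subunit had 7 of 29 higher (24.1%) with a median of 0.23, or 1.17-fold, and the median over all genes was 0.0084. On leaving out 1 library the medians ran from 0.20 to 0.31 in the large and from 0.17 to 0.27 in the small subunit. Both were lowest without replicate 3 of untreated TIGK. No overlap between treated and untreated libraries was seen in 57 members that lay above and 2 that lay below, against 25.7% and 25.4% of all genes. The count of members past the limit turned on single libraries: it was 9 without replicate 3 and 11 without replicate 1 of untreated and treated TIGK respectively, and 39 without either replicate 1 or replicate 3 of treated HaCaT, which are not themselves in this comparison but enter the joint fit. DESeq2 called 28 higher and 1 lower.

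The fitted change lay above 0 in 72 of 78 members in each line, and in 71 members in both, against 50.8% of all genes tested in TIGK, 53.1% in HaCaT and 38.8% in both. Those passing the test as higher in both lines numbered 17, where 6.66% of all genes tested did so, comprising MRPL1, MRPL2, MRPL3, MRPL10, MRPL18, MRPL24, MRPL32, MRPL34, MRPL35, MRPL45 and MRPL49 of the large subunit and MRPS6, MRPS18B, MRPS27, MRPS31, MRPS33 and MRPS34 of the small subunit. A further 40 passed only in HaCaT, 2 only in TIGK (MRPL30 and MRPS10), and 18 passed as higher or lower in neither line. Passing in 1 line and not in the other is not a tested difference, which is given separately. Across the 78 members the fitted changes of the 2 responses, which share no library, had a Pearson correlation of 0.837 and a Spearman correlation of 0.549. Without the 5 members fitted below 0 in both lines the values were 0.494 and 0.450. Members share the libraries they were measured in, so these values describe the plot and carry no p.

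**Figure D2:**
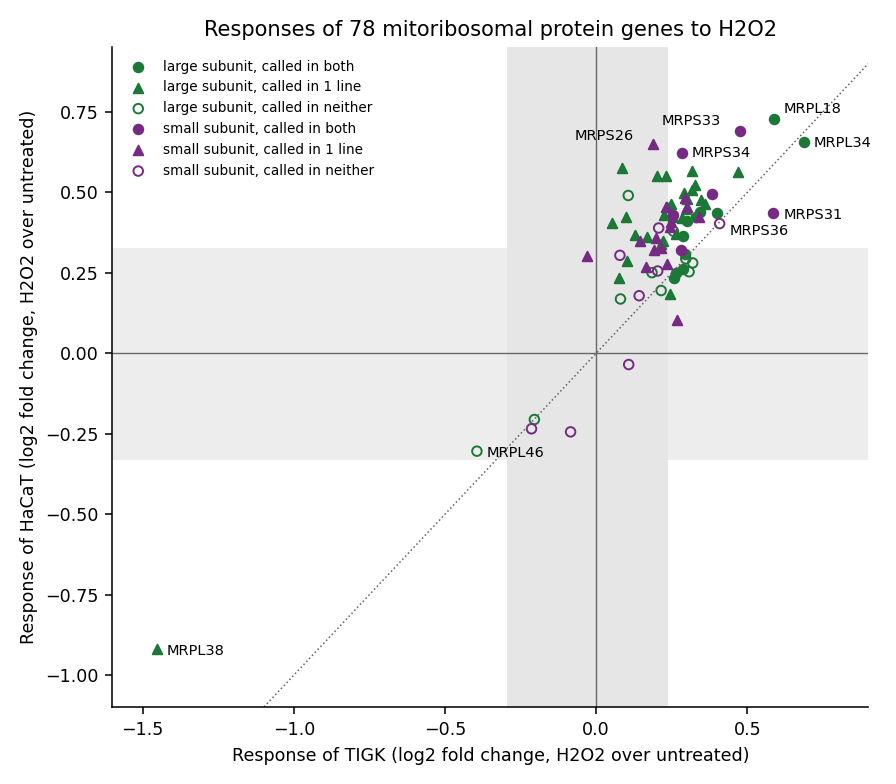
Each point is 1 of the 78 members, placed by its log2 fold change after H2O2 in TIGK (horizontal) and in HaCaT (vertical), with colour for the subunit, filled circles for members passing the test in both lines, triangles in 1 line and open circles in neither; grey bands mark the interquartile range of all genes tested and the dotted line equal values. The bulk of both subunits lies above 0 in both lines, and MRPL38 lies apart at the lower left at -1.45 and -0.92.

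MRPL34 and MRPL18, large subunit proteins with bacterial counterparts, had the largest rises past the limit, MRPL34 in TIGK and MRPL18 in HaCaT. MRPL34 (chr19:17292609-17306843, plus strand, GRCh38) had 739, 771 and 707 normalized counts in untreated HaCaT and 1010.3, 1129.9 and 1355 after H2O2, and 718, 799 and 638 in untreated TIGK and 1151, 1082 and 1237 after. No treated library of either line overlapped the untreated ones. The log2 fold change was 0.66 (SE 0.10, adjusted p = 5.36e-05 by edgeR's quasi-likelihood test) in HaCaT and 0.69 (SE 0.10, adjusted p = 4.65e-05) in TIGK. MRPL18 (chr6:159789812-159798436, plus strand) went from 2285, 2086 and 1971 to 2939, 3559.8 and 4009 in HaCaT, and from 2258, 2468 and 2103 to 3451, 3353 and 3464 in TIGK. Again the groups were fully apart, with a log2 fold change of 0.73 (SE 0.09, adjusted p = 3.7e-06) in HaCaT and 0.59 (SE 0.09, adjusted p = 4.97e-05) in TIGK.

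The largest rise past the limit in the small subunit was that of MRPS31 in TIGK and of MRPS33 in HaCaT, both proteins that bacteria lack. MRPS31 (chr13:40729135-40771173, minus strand) had 761.8, 827 and 675 normalized counts in untreated TIGK and 1167, 1151 and 1084 after H2O2, a log2 fold change of 0.59 (SE 0.09, adjusted p = 5.51e-05 by edgeR). In HaCaT it had 1255, 1260.0 and 1235 before and 1544, 1599.8 and 1929 after, a log2 fold change of 0.44 (SE 0.09, adjusted p = 0.000485). Treated and untreated libraries were apart in both lines, and TIGK after H2O2 remained below untreated HaCaT. MRPS33 (chr7:141002610-141015228, minus strand) had 991, 947 and 819.6 in untreated HaCaT and 1309.7, 1322 and 1823 after, with a log2 fold change of 0.69 (SE 0.13, adjusted p = 0.000256). In TIGK its values were 1215, 1138 and 892 before and 1355, 1482 and 1664 after, which gave a log2 fold change of 0.47 (SE 0.13, adjusted p = 0.007). Its groups were apart in both lines, but the TIGK call was lost on leaving out any of 5 single libraries, with an adjusted p of up to 0.0449 without replicate 3 of untreated TIGK.

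MRPL1, whose bacterial counterpart forms the stalk beside the exit site for tRNA, rose in both lines from different starting levels. MRPL1 (chr4:77862520-77952790, plus strand) had 789, 819 and 808 normalized counts in untreated HaCaT and 1005, 972 and 1283 after H2O2. In TIGK it had 1223, 1212 and 1146 before and 1605, 1545 and 1574 after. The log2 fold changes were 0.43 (adjusted p = 0.000618 by edgeR) and 0.40 (adjusted p = 0.00143). The most abundant large subunit mRNA, MRPL3, rose by a log2 fold change of 0.36 in HaCaT (adjusted p = 0.000101) and 0.29 in TIGK (adjusted p = 0.00132).

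**Figure D3:**
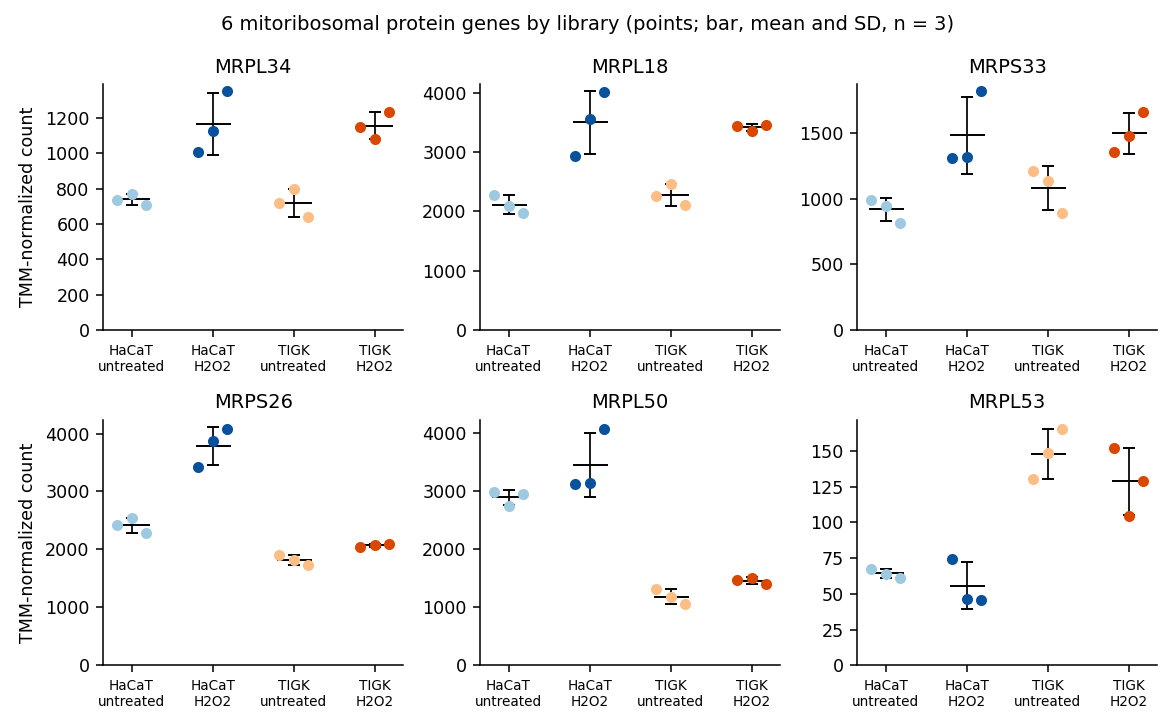
TMM-normalized counts of 6 members in each library by group, with points for libraries and bars for the mean and SD (n = 3), on axes that start at 0. MRPL34, MRPL18 and MRPS33 lie higher after H2O2 in both lines, MRPS26 rises further in HaCaT than in TIGK, and MRPL50 and MRPL53 separate the lines in opposite directions.

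Promoter sequence is shown for the members with the largest rise in TIGK (MRPL34) and in HaCaT (MRPL18) and for the members furthest apart between the untreated lines (MRPL50, higher in HaCaT, and MRPL53, higher in TIGK). RefSeq promoter windows on GRCh38.p14 were found for 69 of the 78 members, each taken at the start nearest to the GENCODE canonical one. The 150 bases upstream of the start are printed 5′ to 3′ on the strand of the gene. MRPL34 is at chr19:17305722-17305871 on the plus strand, MRPL18 at chr6:159790317-159790466 on the plus strand, MRPL50 at chr9:101398619-101398768 on the minus strand and MRPL53 at chr2:74472681-74472830 on the minus strand. Capitals mark, in MRPL34, a match to a motif of NRF1 (GCGCA and GCGC with any 1 base between them), and to CCGGAAGT, a motif of ETS factors, in MRPL53 and, read on the opposite strand, in MRPL18. The stretch of MRPL50 held no match.
MRPL34: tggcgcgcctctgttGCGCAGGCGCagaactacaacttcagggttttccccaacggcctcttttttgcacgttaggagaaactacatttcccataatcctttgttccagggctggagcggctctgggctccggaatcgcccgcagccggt
MRPL18: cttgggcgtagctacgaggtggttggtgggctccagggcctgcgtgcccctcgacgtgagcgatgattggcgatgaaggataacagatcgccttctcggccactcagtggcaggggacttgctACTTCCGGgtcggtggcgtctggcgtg
MRPL50: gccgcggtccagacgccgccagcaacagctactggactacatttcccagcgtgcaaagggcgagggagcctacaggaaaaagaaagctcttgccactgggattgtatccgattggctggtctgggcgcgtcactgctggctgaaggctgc
MRPL53: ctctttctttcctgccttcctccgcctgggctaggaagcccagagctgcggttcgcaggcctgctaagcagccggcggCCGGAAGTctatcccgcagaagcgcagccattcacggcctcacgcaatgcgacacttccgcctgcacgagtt

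Over the 300-base windows, with both strands read, AAGATGGCG, a motif of YY1, was found in 13 of the 69 members (18.8%), in 4.08% of the windows of tested protein-coding genes and in 1.95% of all windows. CCGGAAGT was found in 12 members (17.4%), 8.66% of tested genes and 4.5% of all windows, and the NRF1 motif in 9 members (13%), 11.5% and 6.41%. The core of the antioxidant response element bound by NRF2 (TGAC and GCA with any 3 bases between them) was found in 1 member (1.45%), 2.71% of tested genes and 3.19% of all windows. Of the 13 members with the YY1 letters 5 were higher in HaCaT, with a median log2 fold change of 0.25, against 47 of the 56 without them and a median of 0.42. In TIGK the corresponding counts were 3 of 13, median 0.27, and 13 of 56, median 0.24. For the other motifs in HaCaT, 8 of the 9 members with the NRF1 motif and 44 of the 60 without it were higher, with medians of 0.46 and 0.38, and 9 of the 12 with the ETS motif and 43 of the 57 without it, with medians of 0.40 and 0.41. The 1 member with the NRF2 core was higher, as were 51 of the 68 without it. In TIGK 4 of the 9 members with the NRF1 motif and 12 of the 60 without it were higher, with medians of 0.33 and 0.23. For the ETS motif the TIGK counts were 3 of 12 and 13 of 57, with medians of 0.28 and 0.24. For the NRF2 core they were 0 of 1 and 16 of 68. A match of letters is not evidence of binding, and the difference between members with and without a motif was not tested.

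A small set of members did not follow the rest. MRPL38, which bacteria lack and which lies in the central protuberance of the large subunit, was the only member that passed the test as lower in a response, and it is named because it was the sole one. MRPL38 (chr17:75898643-75905413, minus strand) had 85.4, 78.8 and 82.6 normalized counts in untreated TIGK and 31.3, 28.6 and 30.1 after H2O2. In HaCaT it had 74.1, 57.5 and 54.3 before and 35.6, 21 and 41.6 after. All treated libraries lay below all untreated ones in both lines. Its log2 fold change was -1.45 (SE 0.28, adjusted p = 0.00057 by edgeR's quasi-likelihood test) in TIGK and -0.92 (SE 0.29, adjusted p = 0.0131) in HaCaT, where DESeq2 gave an adjusted p of 0.00457. It was the member with the lowest level per length, and 45.1% of its exon bases are shared with another gene.

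MRPL46, MRPL53, MRPS24 and MRPS25 also had fitted changes below 0 in both lines and passed the test in neither. MRPS25 had 1142, 1095 and 1107 normalized counts in untreated HaCaT and 926, 944 and 973 after H2O2, a log2 fold change of -0.23 (adjusted p = 0.0218 by edgeR, 0.00664 by DESeq2). In TIGK it had 724, 779.8 and 648 before and 656, 591 and 611 after, a log2 fold change of -0.21 (adjusted p = 0.0502), with 1 treated library inside the untreated range. MRPL46 had 228, 231 and 206 in untreated TIGK and 164, 148 and 192 after, a log2 fold change of -0.39 (adjusted p = 0.0747). MRPS24, the counterpart of a bacterial protein at the mRNA entry channel, had under 64 normalized counts in every library, and its fitted change in HaCaT of -0.24 became 0.05 without replicate 2 of untreated or replicate 1 of treated HaCaT.

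Members with known special roles were mixed. MRPL12, the counterpart of the bacterial stalk protein that recruits translation factors, had 473, 499.6 and 448 normalized counts in untreated HaCaT and 655, 749 and 714 after H2O2, a log2 fold change of 0.58 (adjusted p = 5.54e-05 by edgeR). In TIGK it had 623, 691 and 608 before and 713, 683 and 645 after, a log2 fold change of 0.08 (adjusted p = 0.496), with overlapping groups. In GENCODE v44 69.5% of the exon bases of MRPL12 lie in another gene as well. MRPS12, the counterpart of the bacterial decoding-centre protein in which streptomycin resistance arises, rose in HaCaT (log2 fold change 0.48, adjusted p = 0.000237) and had 0.29 in TIGK (adjusted p = 0.0128). MRPL58, a hydrolase that releases stalled peptides, rose in HaCaT (log2 fold change 0.43, adjusted p = 0.00385) and had 0.22 in TIGK (adjusted p = 0.123). The HaCaT call of MRPL58 was lost on leaving out any of 5 single libraries, with an adjusted p of up to 0.0282 without replicate 3 of treated HaCaT. MRPS36, the misnamed member, had 0.40 in HaCaT (adjusted p = 0.0255) and 0.41 in TIGK (adjusted p = 0.0319).

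The difference between the responses was tested in itself, as the interaction of line and treatment. Fitted changes were larger in HaCaT for 62 of 78 members, against 55.2% of all genes tested, with a median difference (TIGK minus HaCaT) of -0.13 over members and -0.042 over all genes. This lean rested on single libraries. Without replicate 3 of treated HaCaT, the library that stood apart, 49 members had the larger change in HaCaT and the median was -0.039 over members and -0.032 over all genes. The member median was -0.051 without replicate 2 of untreated TIGK, -0.080 without replicate 2 and -0.074 without replicate 3 of treated TIGK, where the medians over all genes were 0.025, 0.021 and 0.020. By edgeR's quasi-likelihood test 2 members had a smaller response in TIGK at an adjusted p of 0.01, where 2.98% of all genes did. None had a larger one, where 2.32% of all genes did (5.3% differed in either direction), and the counts at an unadjusted p under 0.05 were 10 smaller and 0 larger, with 3 and 0 by DESeq2. The count of 2 fell to 0 on leaving out any 1 of 8 libraries and to 1 on leaving out replicate 2 of untreated or replicate 3 of treated HaCaT, so at this number of libraries few members can be said to differ in response.

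These were MRPS26 and MRPL4. MRPS26 (chr20:3045945-3048254, plus strand), a small subunit protein that bacteria lack, had 2416, 2542 and 2291 normalized counts in untreated HaCaT and 3425, 3869 and 4071 after H2O2. In TIGK it had 1905, 1824 and 1734 before and 2047, 2074 and 2097 after. Treated libraries were above untreated ones in both lines, with a log2 fold change of 0.65 (SE 0.07, adjusted p = 4.34e-07) in HaCaT, 0.19 (SE 0.07, adjusted p = 0.0377) in TIGK and a difference of -0.46 (SE 0.09, adjusted p = 0.00343 by edgeR). That adjusted p was at most 0.0295 on leaving out 1 library.

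MRPL4, the counterpart of a bacterial protein that lines the exit tunnel for the peptide, started higher in TIGK. MRPL4 (chr19:10251901-10260045, plus strand) had 2009, 1987 and 1950.2 normalized counts in untreated HaCaT and 2696, 2949 and 3061 after H2O2, and 2767, 2887 and 2718 in untreated TIGK and 3239.9, 3236 and 3139 after. The log2 fold change was 0.55 (SE 0.06, adjusted p = 5.92e-07) in HaCaT and 0.20 (SE 0.06, adjusted p = 0.0105) in TIGK, with a difference of -0.35 (SE 0.08, adjusted p = 0.00812 by edgeR) that rose to an adjusted p of 0.0786 without replicate 2 of untreated TIGK. MRPS34, the most abundant small subunit mRNA (chr16:1771890-1773155, minus strand), had a log2 fold change of 0.62 (adjusted p = 2.14e-06) in HaCaT and 0.28 (adjusted p = 0.00537) in TIGK. The TIGK call of MRPS34 was lost on leaving out any of 4 single TIGK libraries, with an adjusted p of up to 0.0239 without replicate 3 of untreated TIGK. The difference for MRPS34 was -0.34 (adjusted p = 0.0381), which did not pass.

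Between the lines the members differed in both directions. In untreated cells HaCaT had the higher level in 18 members and TIGK in 15 by edgeR's test at an adjusted p of 0.01, where 29.1% and 30.8% of all genes tested were, or 59.9% in either direction. The large subunit had 12 higher and 11 lower in HaCaT, with a median log2 fold change (HaCaT over TIGK) of 0.0046, and the small subunit 6 and 4, with a median of 0.031. The median over all genes was -0.007. The median size of the difference, whatever its direction, was 0.22 for members and 0.56 for all genes. In 22 members every untreated HaCaT library lay above every TIGK one and in 20 below, against 36.2% and 37.1% of all genes.

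After H2O2 HaCaT had the higher level in 24 members and TIGK in 12, where 30.2% and 29.8% of all genes tested were, or 60% in either direction. The medians were 0.16 in each subunit and 0.018 over all genes, with 15 and 8 of the large and 9 and 4 of the small subunit past the limit. All HaCaT libraries lay above all TIGK libraries in 30 members and below in 15, against 35.8% and 35.6% of all genes. Without replicate 3 of treated HaCaT the median was 0.041 in the large and 0.084 in the small subunit, and without replicate 3 of treated TIGK it was 0.10 in each. The 2 line comparisons share no library, and 18 members were higher in HaCaT in both and 12 higher in TIGK in both, against 24.3% and 25.6% of all genes tested.

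**Figure D4:**
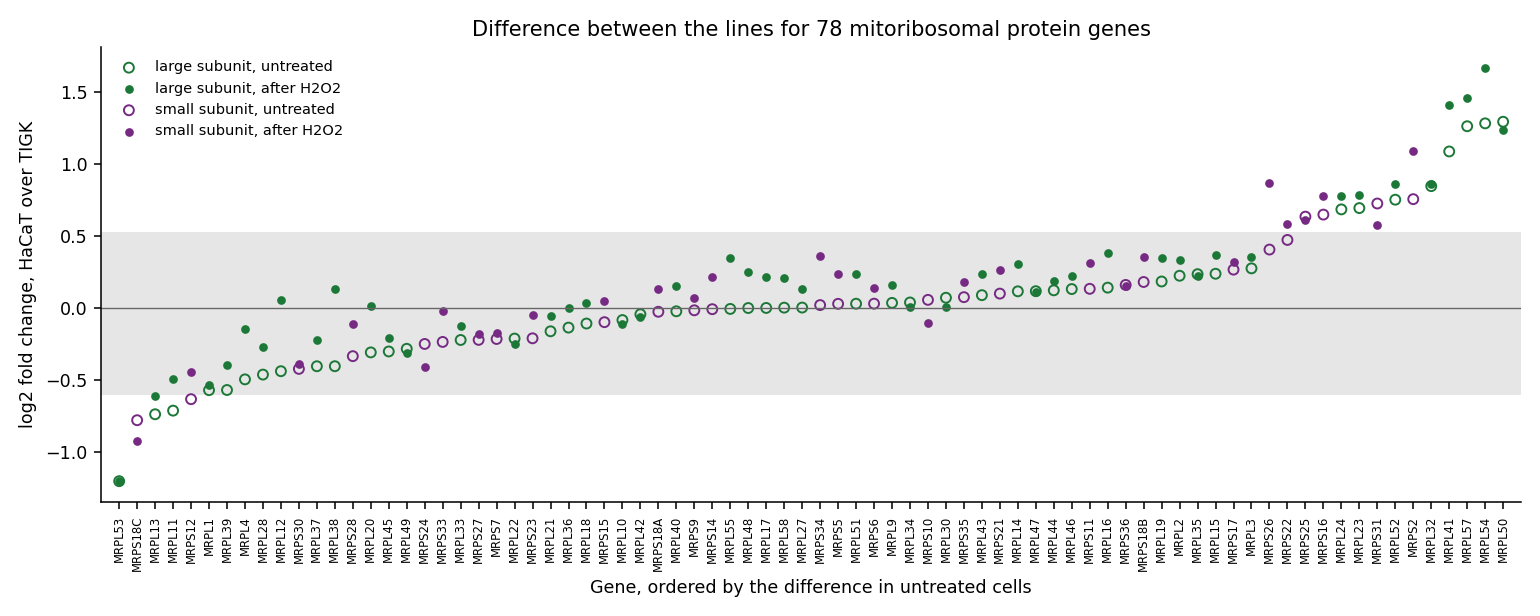
The log2 fold change of HaCaT over TIGK for each of the 78 members, ordered by its value in untreated cells (open points) with the value after H2O2 beside it (filled points), coloured by subunit, with the interquartile range of all genes in untreated cells in grey. Values run from -1.20 for MRPL53 to 1.295 for MRPL50 in untreated cells.

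The members higher in HaCaT were led by large subunit proteins that bacteria lack. MRPL50 (chr9:101387633-101398614, minus strand) had 2981, 2752 and 2949.6 normalized counts in untreated HaCaT and 1309, 1179 and 1051 in untreated TIGK. After H2O2 it had 3129, 3135 and 4083 in HaCaT and 1473, 1509 and 1399 in TIGK. The lines were fully apart in both conditions, with a log2 fold change of 1.295 (SE 0.09, adjusted p = 4.23e-10 by edgeR) and 1.24 (adjusted p = 6.79e-10).

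MRPL57 (chr13:21176645-21179084, plus strand), among the smallest of these proteins, had 1649.8, 1430.2 and 1532 in untreated HaCaT and 646, 718 and 558 in untreated TIGK, a log2 fold change of 1.26 (adjusted p = 1.22e-09 by edgeR). MRPL54 (chr19:3762664-3768575, plus strand) had 582, 465 and 417 in untreated HaCaT and 241, 163 and 199 in untreated TIGK, a log2 fold change of 1.28 (SE 0.18, adjusted p = 3.67e-06). MRPL41 (chr9:137551199-137552555, plus strand) had 1926, 1538 and 1513 in untreated HaCaT and 833, 804 and 707 in untreated TIGK, a log2 fold change of 1.09 (SE 0.11, adjusted p = 4.72e-08). No HaCaT library of these genes overlapped a TIGK library, and after H2O2 their log2 fold changes were 1.46, 1.67 and 1.41. MRPL32, whose maturation by a mitochondrial protease gates ribosome assembly, had 0.85 (SE 0.08, adjusted p = 1.27e-08) in untreated cells. MRPS2, of the small subunit, had 1.09 after H2O2 (SE 0.07, adjusted p = 1.38e-10), with 3531, 4180.1 and 3949 normalized counts in HaCaT and 1893, 1837 and 1751 in TIGK.

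Of the 15 members higher in untreated TIGK, MRPL53, MRPS18C, MRPL13, MRPL11 and MRPS12 were furthest apart, in that order. MRPL53 (chr2:74471958-74473322, minus strand), which bacteria lack, had 67.2, 64.1 and 61.2 normalized counts in untreated HaCaT and 130.2, 148 and 165 in untreated TIGK. Its log2 fold change was -1.20 (SE 0.22, adjusted p = 8.75e-05 by edgeR), and -1.20 after H2O2 (adjusted p = 0.000121). In GENCODE v44 99.4% of its exon bases lie in another gene as well, and as no source used here says how reads shared by genes were counted, its level is uncertain.

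MRPS18C (chr4:83455932-83469735, plus strand) is 1 of 3 human relatives of a single bacterial protein, beside MRPS18A and MRPS18B. It had 226, 187 and 200.5 normalized counts in untreated HaCaT and 395, 366 and 294 in untreated TIGK, a log2 fold change of -0.78 (SE 0.14, adjusted p = 9.44e-05 by edgeR), and -0.92 after H2O2. MRPL13 had 1323, 1563 and 1268 in HaCaT and 2645, 2247 and 2015 in TIGK. Its log2 fold change was -0.74 (SE 0.12, adjusted p = 3.49e-05 by edgeR), and -0.61 after H2O2 (adjusted p = 0.000224). MRPL11, of the site where translation factors bind, had 1632, 1601 and 1674 in HaCaT and 2978, 2761 and 2292 in TIGK, a log2 fold change of -0.71 (adjusted p = 7.39e-06). After H2O2 the log2 fold change was -0.49 for MRPL11 (adjusted p = 0.000372) and -0.53 for MRPL1 (adjusted p = 2.13e-05). MRPS12 (chr19:38930548-38933162, plus strand) had 1223, 1226 and 1106 in HaCaT and 1872, 1896 and 1739 in TIGK, a log2 fold change of -0.63 (SE 0.09, adjusted p = 3.39e-06). In all of these the untreated lines did not overlap.

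The members furthest apart between the lines were compared with the genes around them. Within 5 Mb of MRPL50, 46 other tested genes had a median log2 fold change of 0.73, 32 of them higher and 6 lower in HaCaT at an adjusted p of 0.01. The 204 neighbours of MRPL54 had a median of 0.81 (144 higher, 20 lower), the 40 of MRPL57 a median of 1.03 (24 and 5) and the 112 of MRPL41 a median of 0.60 (66 and 16). For the 5 members furthest apart on the TIGK side the neighbour medians were -0.11 around MRPL53, -0.55 around MRPS18C, -0.40 around MRPL13, -0.17 around MRPL11 and -0.64 around MRPS12. Across the 78 members the value of the member and the median of its neighbours had a Pearson correlation of 0.716 and a Spearman correlation of 0.681, and the signs matched in 53. Neighbourhoods of nearby members overlap, so these values are a description. The same correlation was not computed over all genes tested, so it is not shown to be particular to the members. Among chromosomes that hold members, the median over all genes tested ran from -0.65 on chromosome 4 to 0.46 on chromosome 9. DNA copy number of the lines was not measured here.

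**Figure D5:**
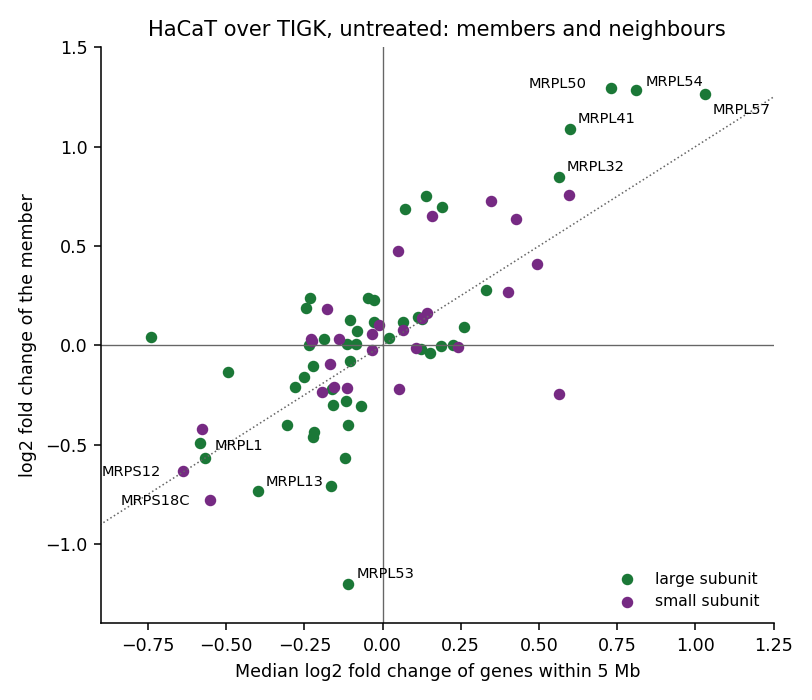
For each of the 78 members, the log2 fold change of HaCaT over TIGK in untreated cells (vertical) against the median of the other tested genes within 5 Mb (horizontal), coloured by subunit. The dotted line marks equal values. Members high in HaCaT such as MRPL57 and MRPL54 lie at neighbour medians of 1.03 and 0.81, and MRPL53 lies low at a neighbour median of -0.11.

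Many members share their start region with another gene. A protein-coding gene on the opposite strand started within 1000 bases in 29 members (37.2%), against 16.8% of the 13469 tested protein-coding genes. Of 28 tested partners, 10 were higher and 2 lower after H2O2 in HaCaT (median log2 fold change 0.18) and 4 higher and 2 lower in TIGK (median 0.15), while the members of these pairs had medians of 0.40 and 0.28. The shares of all genes tested were 18.9% higher and 15.2% lower in HaCaT and 10.2% and 12.9% in TIGK. MRPL46 and MRPS11, 1 from each subunit, start 34 bases apart, and MRPS11 had a log2 fold change of 0.39 in HaCaT and 0.21 in TIGK where MRPL46 had -0.30 and -0.39, none of which passed the test.

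Most members are short genes, and short genes as a class lay higher after H2O2. Of the 78 members 55 fell in the shortest of 4 equal classes of protein-coding genes by deposited gene length, up to 3279 bases. In that class the median log2 fold change was 0.29 in HaCaT and 0.15 in TIGK over all genes and 0.42 and 0.25 over members. Higher by the test were 37.2% of all genes and 44 of the 55 members in HaCaT, and 15.4% of all genes and 14 of the members in TIGK. In the next class, up to 5088 bases, the medians over all genes were 0.15 and 0.068 and those of the 12 members 0.29 and 0.26. Most members also lay in the upper classes of protein-coding genes by mean normalized count, 40 in the third of 4 and 22 in the top one. In the third class 30.6% of all genes and 33 of the members were higher in HaCaT, and 18.1% and 11 in TIGK. In the top class 31.9% of all genes and 19 of the members were higher in HaCaT, and 14.9% and 8 in TIGK. The parts of gene length and level in the members' rise were not tested beyond these values.

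Other genes tied to mitochondrial translation and ribosomes were described by the same counts. Beside these counts, 18.9% of all genes tested were higher and 15.2% lower in HaCaT, and 10.2% and 12.9% in TIGK. Nuclear genes for respiratory chain subunits, which work beside the products of the mitochondrial ribosome, numbered 81 tested. Of these 49 were higher in HaCaT (60.5%, median log2 fold change 0.42) and 10 in TIGK (12.3%, near the share of all genes, median 0.24). The 80 tested cytosolic ribosomal protein genes had 62 higher and 2 lower in HaCaT (median 0.50), and 40 and 2 by DESeq2. In TIGK they had 6 higher (7.5%, below the share of all genes) and 1 lower (median 0.27), and 11 and 1 by DESeq2. Fitted changes in TIGK still lay above 0 in 75 of the 80, and at an unadjusted p under 0.05 the edgeR counts were 55 higher and 1 lower. Of 27 mitoribosome assembly factors 8 were higher and 1 lower in HaCaT and 6 and 1 in TIGK, with medians of 0.14 and 0.10. METTL15, a methyltransferase of the small subunit rRNA, rose most among them in TIGK, by 0.94 on the log2 scale (adjusted p = 2.07e-07 by edgeR) from 574, 607 and 498 normalized counts to 1071, 1054 and 1093. Of 18 mitochondrial translation factors 7 were higher and 1 lower in HaCaT and 5 higher in TIGK.

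Mitoribosomal proteins that lack an MRP name had fitted changes above 0 in both lines and passed the test in HaCaT only. Of DAP3, PTCD3, AURKAIP1, CHCHD1 and GADD45GIP1, 4 of 5 were higher in HaCaT, with log2 fold changes of 0.22 for DAP3, 0.48 for AURKAIP1, 0.55 for CHCHD1 and 0.53 for GADD45GIP1. In TIGK 0 of 5 passed by edgeR or by DESeq2, with 2 higher at an unadjusted p under 0.05. The TIGK log2 fold changes ran from 0.10 to 0.38, with a median of 0.16. By edgeR 18.9% of all genes tested were higher in HaCaT and 10.2% in TIGK. The RNAs on which and for which the ribosome works went the other way. Of 13 mitochondrial mRNAs 13 were lower in TIGK (median log2 fold change -0.90) and 10 in HaCaT (median -0.54), where 12.9% and 15.2% of all genes tested were. Both mitochondrial rRNAs were lower in both lines. MT-RNR2, the rRNA of the large subunit, had 471681, 479612 and 492188 normalized counts in untreated HaCaT and 107878, 117534 and 121837 after H2O2, and 159941, 154974 and 152277 in untreated TIGK and 47434, 44283 and 41432 after. Its log2 fold change was -2.06 in HaCaT and -1.81 in TIGK, with no overlap between groups. All libraries were made from polyA RNA.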

How the data were processed

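The authors deposited raw counts per gene for 12 libraries, made by alignment with HISAT2 to GRCh38 and counting with featureCounts 1.5.0-p3. Sources differ on the HISAT2 version (2.0.0 or 2.0.5), and the annotation release, strand setting and treatment of shared reads are not given in the sources used here. Separate deposited tables of the authors' fold changes and p-values were not used. Counts were tested in edgeR 4.0.16 (R 4.3.3, limma 3.58.1) with TMM scaling and 1 quasi-likelihood fit of all 4 groups, over 16618 genes with a mean of at least 10 counts, and Benjamini-Hochberg adjusted p under 0.01 was called. DESeq2 1.42.0, other scalings, no filter, groups alone, a replicate block and leaving out each library were alternatives. TPM used the deposited gene lengths.

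Members, gene lists and motifs were chosen with earlier results of these data known, so lists are described by counts and medians. Values are given for the 5 members with the largest change in each contrast and direction (100 or more normalized counts in the group where the level is high, no overlap), the 2 highest and 2 lowest per subunit, and members with known roles. Members outside this rule, such as MRPL38 in the responses and MRPS25, were named after their values were seen. The same-numbered libraries of different groups had correlations of their deviations from -0.121 to 0.0257, so the numbers were not taken to pair them.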

Additional observations from a re-analysis of the deposited data

Results flagged for a closer look

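For 2 members the response to H2O2 differed between TIGK and HaCaT by the test of the difference itself (edgeR, adjusted p under 0.01), where 5.3% of all genes tested did. The count fell to 0 on leaving out any 1 of 8 of the 12 libraries. The response of MRPS26 differed by a log2 value of -0.46 (TIGK minus HaCaT) and that of MRPL4 by -0.35. In both genes every treated library lay above every untreated one in both lines, so the difference is one of size.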

How the results depend on the processing

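With 3 libraries a group, a change near 1.2-fold lies at the edge of what passes, and the number of members past the limit moved more than the fitted changes. In TIGK the count of members that rose, 19, was 39 with its groups fitted alone, 48 without the filter on low counts, 45 at a limit of 0.05, and from 9 to 39 on leaving out 1 library. In HaCaT the count that fell, 0, was 2 with DESeq2, 2 at a limit of 0.05 and 0 to 1 on leaving out 1 library, while the large subunit median ran from 0.28 to 0.42. After H2O2 the large subunit median between the lines ran from 0.041 to 0.18. The 2 members with a smaller response in TIGK became 1 with DESeq2 size factors, 1 without the filter, 5 at a limit of 0.05 and 0 to 2 on leaving out 1 library. Placing MRPS30, MRPS18A and MRPS36 by structure gave ratios of large to small subunit of 1.059 and 1.049 in HaCaT and 1.130 and 1.155 in TIGK, before and after H2O2. Taking medians in place of means gave 1.466 and 1.459 in HaCaT and 1.407 and 1.349 in TIGK, which reversed the order of the lines. MRPS24 in HaCaT, below 0 with all libraries, ran from -0.79 to 0.046 on leaving out 1 library. The cause of these changes was not tested. Over the 72 gene values followed through the settings, 1214 of 1294 recomputed values kept direction and side of the limit, 52 lost the call, 26 gained it and 2 changed sign.

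With the replicate number as a block, 13 members rose in TIGK, 48 in HaCaT and 1 had a smaller response in TIGK. The numbers do not pair the libraries by the check of their deviations.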
